A study of Mus musculus with 10 samples.

Results

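Proteoglycans are proteins that carry long sulfated sugar chains (glycosaminoglycans), and 10 genes that encode their core proteins were examined: the syndecans *Sdc1*, *Sdc2*, *Sdc3* and *Sdc4*, the glypicans *Gpc1* and *Gpc4*, perlecan (*Hspg2*), agrin (*Agrn*), biglycan (*Bgn*) and serglycin (*Srgn*). They were taken by gene name, and all 10 were found among the 27024 named genes of the deposited expression table. The samples were wild-type bEnd.3 cells, a line of mouse brain endothelial cells immortalised with polyomavirus middle T antigen, grown in serum-containing medium. For 16 h, 5 samples (replicates 1, 2, 3, 5 and 6) received 5 nM StcE, a bacterial protease that cuts proteins bearing dense mucin-type O-glycans, and 5 samples (replicates 1 to 5) received the same volume of saline. No sample given a catalytically inactive enzyme was analysed here. The labels do not say whether replicates were separate cultures, so p-values measure the spread between these samples, which may be technical.

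The glycocalyx is the sugar-rich coat on the luminal face of the endothelium, and proteoglycans are among its main carriers of heparan sulfate and chondroitin sulfate. Syndecans span the membrane and shed their outer part when cut by proteases, glypicans are held to the membrane by a lipid anchor, perlecan and agrin are secreted into the basement membrane, biglycan is a small matrix proteoglycan, and serglycin is packed into secretory granules and vesicles. The sugar chains are built on serines that are followed by glycine, through a short linker, and bind growth factors, chemokines and plasma proteins.

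Expression was given as FPKM, fragments per kilobase of annotated exon length, scaled for sample depth by a median ratio over genes. Levels of different genes can be compared per length only as far as the annotated exons match the transcripts made. The totals recovered from the values ranged from 22146524 to 33546522 fragments per sample. The endothelial label was checked with 9 marker genes, all of which had a mean of at least 16.5 FPKM, up to 485.9 FPKM for *Cdh5* (VE-cadherin). The summed FPKM of these markers was 1700 to 1842 in saline samples and 1613 to 1702 in StcE samples. After StcE, 5 of the 9 were lower past the threshold used below, against 6.41% of all tested genes. Markers of mural cells, fibroblasts, astrocytes, microglia and blood, neurons, oligodendrocytes, and mast cells and megakaryocytes had means over all 10 samples of at most 3.14 FPKM (*Acta2*), and of the 2 that were tested (*Acta2* and *Pdgfra*) 0 passed under limma, with 0 at an unadjusted p under 0.05 and 0 by voom. In bulk samples, fewer cells of a type and less RNA per cell cannot be told apart.

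The sequences that define these families at the level of the gene are short. The 4 syndecans differ in their outer domains and share the end of the cytoplasmic tail, which binds PDZ-domain proteins. The last 20 codons and the stop codon are shown from the GENCODE vM21 annotation and transcripts on GRCm38, 5′ to 3′ on the coding strand, with the last 4 codons in capitals. They are shown because the 4 genes, which are compared with each other below, share this end.
Sdc1 (chr12:8791745-8791807, + strand): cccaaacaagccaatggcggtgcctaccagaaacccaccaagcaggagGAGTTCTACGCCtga
Sdc2 (chr15:33032478-33032540, + strand): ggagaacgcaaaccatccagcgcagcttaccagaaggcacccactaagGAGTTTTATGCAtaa
Sdc3 (chr4:130822747-130822809, + strand): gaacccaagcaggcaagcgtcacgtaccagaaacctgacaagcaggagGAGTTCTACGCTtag
Sdc4 (chr2:164426086-164426148, - strand): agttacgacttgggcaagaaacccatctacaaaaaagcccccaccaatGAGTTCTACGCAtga

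The last 4 codons encoded the same 4 residues in every pair of syndecans, although only 9 to 11 of the 12 bases were the same. Over the 20 codons, the closest pair was *Sdc1* and *Sdc3* with 11 residues in common, followed by *Sdc2* and *Sdc4* with 9, and the other pairs had 5. Serglycin is shown for its sugar attachment region, in which 10 serine-glycine codon pairs (capitals) follow each other without a break.
Srgn (chr10:62494989-62495066, - strand): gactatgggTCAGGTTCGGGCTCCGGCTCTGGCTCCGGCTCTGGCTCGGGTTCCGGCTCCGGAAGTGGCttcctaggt

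Serine-glycine codon pairs were found in all 10 coding sequences. *Srgn* held 10 of them in 152 codons, *Sdc1* 5 in 311, *Sdc2* 3 in 202, *Sdc3* 8 in 442 and *Sdc4* 3 in 198. *Hspg2* held 50 in 4383 codons, *Agrn* 21 in 2034, *Bgn* 4 in 369, *Gpc1* 6 in 557 and *Gpc4* 4 in 557. A pair is a sequence feature and does not show that a chain is attached there.

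Among the 10 genes, perlecan had the highest level, followed by the syndecans and serglycin. In saline samples *Hspg2* was at 53.5 ± 5.74 FPKM (SD, n = 5), 2.24 times that of *Sdc1*. The order continued with *Srgn*, *Sdc2*, *Sdc4*, *Sdc3*, *Agrn* and *Bgn*, and ended with *Gpc4* and *Gpc1*. Neighbours in this order did not overlap between samples, except *Sdc4* with *Sdc3* and *Gpc4* with *Gpc1*. After StcE the order of the means was the same, but the ranges of *Sdc1* and *Srgn* now overlapped and those of *Gpc4* and *Gpc1* did not.

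**Figure D1:**
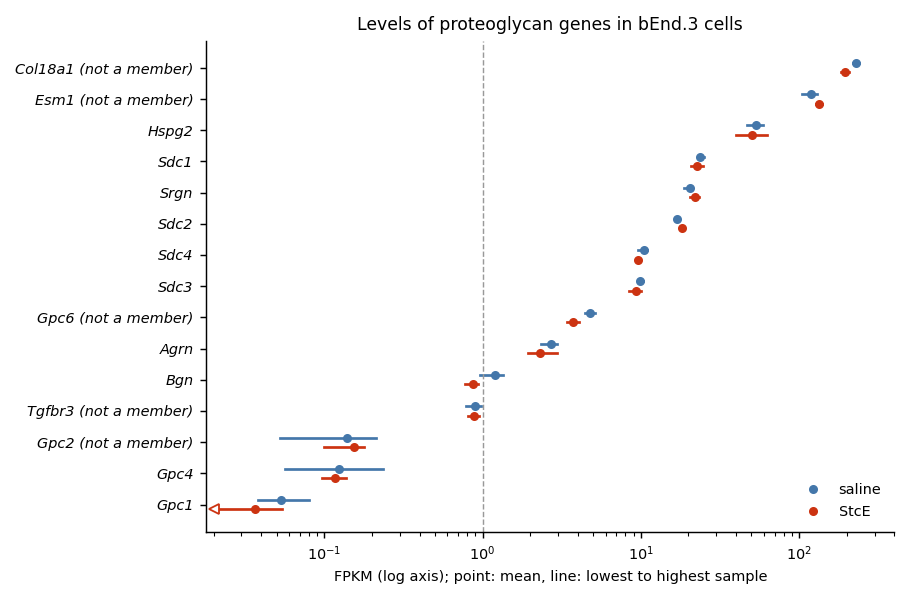
FPKM on a log axis of the 10 core protein genes and 5 related proteoglycan genes that are not members. Points are group means and lines run from the lowest to the highest of 5 samples, saline in blue and StcE in red; the dashed line is at 1 FPKM, and the open arrowhead marks a sample in which *Gpc1* was at 0. *Gpc4* and *Gpc1* sit below 1 FPKM, as do the non-members *Tgfbr3* and *Gpc2* and the StcE samples of *Bgn*. *Gpc6*, *Esm1* and *Col18a1* lie among or above the members.

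StcE was compared with saline to find which core protein transcripts changed with treatment. Of the 10 genes, 8 had a mean of at least 1 FPKM and were tested among 11062 genes with limma, with Benjamini-Hochberg adjustment and a threshold of 0.05 on the adjusted p. *Sdc2* was higher and *Bgn* lower after StcE, and the other 6 did not pass. In all tested genes 11.9% were called, 6.41% lower and 5.52% higher, so that the 2 members called (25% of those tested) exceed the background share by about 1 gene. Since the members were chosen with earlier results of these data known, such counts are descriptions only. The groups did not overlap for the same 2 of 8 members, against 10.7% of all tested genes. Mean log2 levels were lower after StcE for 6 of the 8 members, and the median log2 fold change was -0.09 for the members and -0.000663 for all tested genes, of which 50.4% were lower.

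*Sdc2* (chr15:32920723-33034935), a syndecan of mesenchymal and endothelial cells, rose after StcE by a small amount. Its FPKM in saline replicates 1 to 5 was 17.1, 16.8, 16.9, 17.1 and 16.8. In StcE replicates 1, 2, 3, 5 and 6 it was 18.0, 18.1, 18.4, 18.5 and 18.2. Every StcE sample was above every saline sample, and the SD within each group was 0.991% of the mean in saline and 1.08% after StcE. The mean went from 16.9 ± 0.168 to 18.2 ± 0.198 FPKM (SD, n = 5 each), a difference of 7.67%. On the log2(FPKM + 1) scale the change was 0.10 (SE 0.0196, 95% interval 0.06 to 0.14, limma adjusted p = 0.00734), and the exact two-sided permutation test gave p = 0.00794, the smallest that 252 arrangements allow. Between 1380 and 2280 fragments per sample lay behind these values. Counting error alone is larger than SDs of 0.991% and 1.08% at such numbers, so the small spread is not taken as a trait of the gene. By limma's voom on recovered fragments the log2 fold change of *Sdc2* was 0.12 (SE 0.0292, adjusted p = 0.0137).

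*Sdc4* (chr2:164424247-164443887), a syndecan of focal adhesions, had a lower mean after StcE without passing the threshold. Saline replicates 1 to 5 had 10.6, 11.0, 10.8, 9.64 and 10.4 FPKM. StcE replicates 1, 2, 3, 5 and 6 had 9.73, 9.82, 9.62, 9.43 and 9.66 FPKM. All saline samples except replicate 4 lay above all StcE samples. The mean was 10.5 ± 0.526 FPKM in saline and 9.65 ± 0.145 FPKM after StcE (SD, n = 5 each), with a log2 fold change of -0.11 (SE 0.0328, 95% interval -0.18 to -0.04, limma adjusted p = 0.0555; exact permutation p = 0.0317). Without saline replicate 4 the log2 fold change was -0.13 and passed the threshold (limma adjusted p = 0.00992). *Sdc4* did not pass in the other 9 of 10 omissions (limma adjusted p up to 0.118), nor in 20 of all 23 alternatives run.

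*Sdc1* (chr12:8771323-8793715), best known from epithelial and plasma cells and the highest syndecan here, had 23.4, 23.4, 25.0, 23.6 and 23.6 FPKM in saline replicates 1 to 5. StcE replicates 1, 2, 3, 5 and 6 had 21.5, 24.7, 20.9, 23.6 and 22.8 FPKM. The groups overlapped, and the log2 fold change of -0.07 (95% interval -0.16 to 0.02) did not pass the threshold (limma adjusted p = 0.319). *Sdc3* (chr4:130792537-130826319), a syndecan first described in the nervous system, had 10.3, 9.53, 9.66, 10.2 and 9.57 FPKM in saline and 8.79, 9.77, 8.45, 9.65 and 9.98 FPKM after StcE. Its groups overlapped as well, with a log2 fold change of -0.07 (95% interval -0.17 to 0.02, limma adjusted p = 0.311). Without StcE replicate 3 the log2 fold change was -0.04 for both genes. Genes on the opposite strand (*Gm12970* and *Gm26716*) covered 7.73% of the exons of *Sdc3*, and whether the counting used strand is not given in the sources used here.

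The summed FPKM of the 4 syndecans was 61.1 ± 0.845 in saline and 59.9 ± 2.11 after StcE (SD, n = 5 each), with overlapping ranges. Within this sum, *Sdc2* took 27.1% to 28.2% in saline samples and 29.0% to 32.1% in StcE samples. The ratio of *Sdc2* to *Sdc4* was 1.52 to 1.77 in saline and 1.84 to 1.96 after StcE. Neither range overlapped between the groups, and no test was run on shares or ratios, since they were formed from the same values as the comparisons of single genes.

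**Figure D2:**
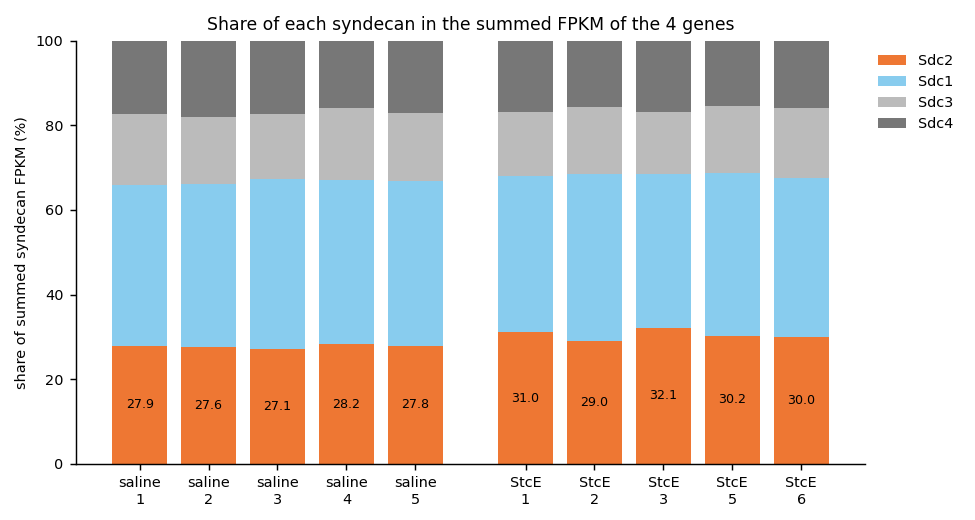
Stacked bars give the share in percent of each syndecan in the summed FPKM of the 4 syndecan genes, 1 bar per sample, with replicate numbers below and the *Sdc2* share written in its segment. The *Sdc2* segment is 27.1% to 28.2% in the 5 saline samples and 29.0% to 32.1% in the 5 StcE samples.

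*Bgn* (chrX:73483602-73495933), a small leucine-rich matrix proteoglycan with chondroitin or dermatan sulfate chains, fell after StcE from an already low level. Saline replicates 1 to 5 had 1.33, 1.34, 1.31, 0.965 and 1.01 FPKM. StcE replicates 1, 2, 3, 5 and 6 had 0.781, 0.937, 0.856, 0.866 and 0.910 FPKM. The groups did not overlap, but saline replicates 4 and 5 lay close to the StcE samples and well below the other 3 saline samples. The mean was 1.19 ± 0.189 FPKM in saline and 0.870 ± 0.0599 FPKM after StcE (SD, n = 5 each), a difference of -27.0%. The log2(FPKM + 1) change was -0.23 (SE 0.0644, 95% interval -0.37 to -0.08, limma adjusted p = 0.0429; exact permutation p = 0.00794), a scale that understates the change of such a low gene: the log2 ratio of the mean FPKM was -0.45. The values rested on 112 to 247 fragments per sample. The mean of *Bgn* over all 10 samples was 1.03 FPKM, just above the minimum of 1 FPKM for testing, and its StcE mean was below that minimum. With no filter the call was lost (limma adjusted p = 0.111), and with a minimum of 0.1 FPKM it was barely kept (limma adjusted p = 0.0495). The call was lost when any one of saline replicates 1, 2 and 3 or of StcE replicates 1, 2, 3, 5 and 6 was left out, with adjusted p from 0.0257 to 0.101 over the 10 omissions.

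*Hspg2* and *Agrn* varied more between samples than the syndecans and serglycin. The SD was 10.7% of the mean in saline and 16.4% after StcE for *Hspg2*, and 10.4% and 16.7% for *Agrn*. For *Bgn* it was 15.9% in saline and 6.88% after StcE. *Hspg2* (chr4:137468769-137570630), which encodes perlecan, had 59.1, 46.7, 53.0, 59.4 and 49.1 FPKM in saline replicates 1 to 5. StcE replicates 1, 2, 3, 5 and 6 had 40.0, 49.9, 49.99, 48.2 and 62.9 FPKM. The lowest and the highest of the 10 samples were both StcE samples, and the log2 fold change of -0.10 had an interval from -0.32 to 0.13 (limma adjusted p = 0.587). It was -0.02 without StcE replicate 1, -0.06 without either saline replicate 1 or saline replicate 4, and -0.18 without StcE replicate 6, and passed the threshold in no case. *Agrn* (chr4:156165290-156197488), which encodes agrin, the organiser of the neuromuscular junction and a component of vascular basement membranes, had 2.97, 2.65, 2.98, 2.56 and 2.33 FPKM in saline. After StcE it had 1.93, 2.15, 2.30, 2.25 and 2.97 FPKM. The first 4 of these StcE samples lay below every saline sample and replicate 6 lay among the highest, so that the mean changed by -14.0% without passing the threshold (log2 fold change -0.16, 95% interval -0.33 to 0.01, limma adjusted p = 0.215). Without StcE replicate 6 the log2 fold change of *Agrn* was -0.22 and passed the threshold (limma adjusted p = 0.046). *Agrn* did not pass in the other 9 of 10 omissions (limma adjusted p up to 0.394), nor in 22 of all 23 alternatives run. StcE replicate 1 was the lowest of the 10 samples for *Hspg2*, *Agrn* and *Bgn*, and StcE replicate 3 was the lowest for *Sdc1* and *Sdc3*.

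*Srgn* (chr10:62493833-62527451), whose protein carries its chains on the repeat printed above, had 21.2, 21.05, 21.01, 18.7 and 20.8 FPKM in saline replicates 1 to 5. StcE replicates 1, 2, 3, 5 and 6 had 22.2, 21.5, 23.3, 20.5 and 21.9 FPKM. All StcE samples except replicate 5 lay above all saline samples, and the log2 fold change of 0.09 (95% interval -0.0031 to 0.17) did not pass the threshold (limma adjusted p = 0.196). Without saline replicate 4 it was 0.05. Marker genes of mast cells and megakaryocytes, which also store serglycin, had means over all 10 samples of at most 0.714 FPKM (*Itga2b*).

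**Figure D3:**
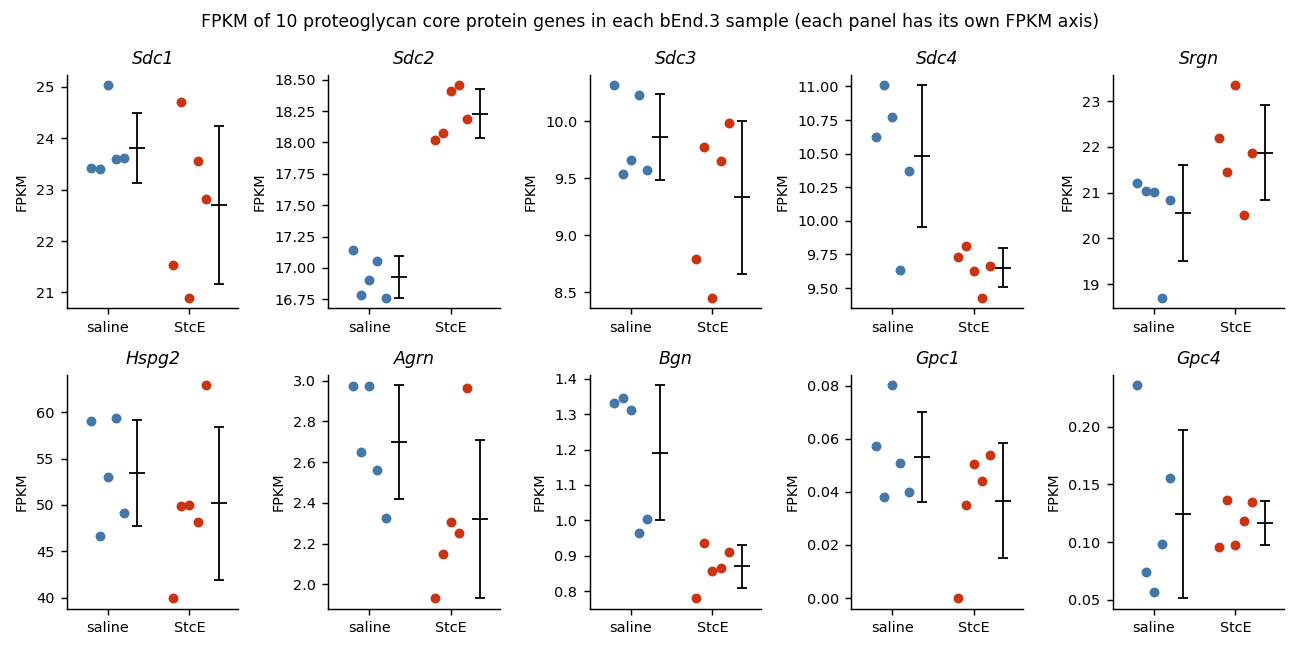
FPKM of the 10 genes in each sample, saline in blue and StcE in red, with 1 point per sample and the mean ± SD in black; each panel has its own FPKM axis, which need not start at 0. The groups are apart for *Sdc2* (16.8 to 17.1 against 18.0 to 18.5 FPKM) and *Bgn* (0.965 to 1.34 against 0.781 to 0.937 FPKM) and overlap in the other panels.

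The 2 glypicans were close to the limit of detection. *Gpc1* (chr1:92831645-92860779) had 0.038 to 0.080 FPKM in saline samples and 0 to 0.054 FPKM in StcE samples, on 0 to 11 fragments. A count of 3 fragments corresponded to 0.0166 to 0.0254 FPKM for this gene, and its opposite-strand neighbour *Ankmy1* covered 18.9% of its exons. *Gpc4* (chrX:52053021-52165252) had 0.057 to 0.236 FPKM in saline and 0.096 to 0.136 FPKM after StcE, on 4 to 19 fragments. With no filter on low values neither passed the threshold (limma adjusted p = 0.621 for *Gpc1* and 0.954 for *Gpc4*), and a difference was not detectable at this depth. Such limits cover counting error only.

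Related genes were read from lists of proteoglycans and of the proteins that build, cut or bind them. No list was tested as a set. Of all tested genes, 11.9% were called, 6.41% lower and 5.52% higher, and 10.7% had groups that did not overlap. The counts in the lists below are to be read beside these shares. They are descriptions only, since the lists were also chosen with earlier results of these data known. In the list of other heparan sulfate proteoglycans, 2 of 6 genes were tested and both fell. *Gpc6*, a glypican, went from 4.74 ± 0.269 to 3.72 ± 0.309 FPKM (SD, n = 5 each; log2 fold change -0.28, limma adjusted p = 0.00412), and its mean in saline was 38.2 times that of *Gpc4*. *Col18a1*, which encodes the collagen core protein that releases endostatin, went from 229.5 to 195.9 FPKM (log2 fold change -0.23, limma adjusted p = 0.00265), and its saline level was 4.29 times that of *Hspg2*. Both lay in separate ranges in the 2 groups, whereas *Hspg2* and *Gpc4* did not. In the list of chondroitin, dermatan and keratan sulfate proteoglycans, 13 of 20 genes were in the table and 1 was tested. *Esm1* (endocan, an endothelial dermatan sulfate proteoglycan) had 118.4 and 134.1 FPKM and did not pass (log2 fold change 0.18, limma adjusted p = 0.0503). It had an unadjusted p under 0.05 and passed by voom (adjusted p = 0.0117) and without saline replicate 3 (limma adjusted p = 0.0247). It did not pass in the other 9 of 10 omissions, nor in 17 of all 23 alternatives run (adjusted p up to 0.149).

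Among proteins that carry chains only in part, 5 of 6 were tested, with 1 higher and 2 lower. *Cd44*, the hyaluronan receptor, rose from 46.0 to 52.6 FPKM (log2 fold change 0.19, limma adjusted p = 0.00169), while *Aplp2* fell by 0.16 and *App* by 0.11 on the log2 scale (limma adjusted p = 0.0152 and 0.0268). The other 2, *Nrp1* and *Thbd*, had an unadjusted p under 0.05 without passing, and *Thbd* was called by voom. Among 6 intracellular partners of syndecans, *Ezr* (ezrin, which links membrane proteins to actin) rose from 24.1 to 28.0 FPKM (log2 fold change 0.21, limma adjusted p = 0.00417), and the other 5 did not pass, although *Gipc1* and *Prkca* had an unadjusted p under 0.05 and *Gipc1* was called by voom. Of the partners of agrin and perlecan, 3 of 5 were tested and *Dag1* (dystroglycan, which binds both) fell from 25.7 to 22.3 FPKM (log2 fold change -0.20, limma adjusted p = 0.0229), while *Nid1* (nidogen) did not pass (limma adjusted p = 0.507).

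The enzymes of shedding and trimming were tested for 5 of 9 genes, and 2 fell: *Adam10*, a membrane protease (log2 fold change -0.14, limma adjusted p = 0.00852), and *Sulf2*, which removes sulfate from heparan sulfate (-0.15, adjusted p = 0.037). Of 6 enzymes of the linker that joins chain and core, 5 were tested and *B4galt7*, its first galactosyltransferase, rose from 9.81 to 12.02 FPKM (log2 fold change 0.27, limma adjusted p = 2.1e-04). All 11 heparan sulfate chain enzymes were tested and 3 fell, where 6.41% of all tested genes were called lower. These were the polymerase subunits *Ext1* and *Ext2* (by 0.21 and 0.10 on the log2 scale, limma adjusted p = 0.0374 and 0.0302) and the sulfotransferase *Hs6st2* (by 0.18, adjusted p = 0.038). Of the 7 tested chondroitin sulfate chain enzymes 0 passed under limma, 4 had an unadjusted p under 0.05, and 1 (*Chst11*) was called by limma's voom on recovered fragments. The most highly expressed was *Chst14* (limma adjusted p = 0.187). The share of all tested genes at an unadjusted p under 0.05 was not computed. It cannot be below the 11.9% called, so such counts, here and in the lists above, are not results about a list. The calls for *App*, *Ext1*, *Ext2*, *Hs6st2*, *Sulf2* and *Dag1* were each lost when some single samples were left out, in 6, 6, 6, 8, 7 and 3 of 10 omissions. These included saline replicate 1 and StcE replicate 3 for all 6 genes. A fit of 8 samples with replicate number as a block also lost all 6 calls. It lost those for *Col18a1*, *Aplp2*, *Ezr* and *Adam10* as well (limma adjusted p = 0.071, 0.141, 0.066 and 0.140). With the block, *Gpc6*, *Cd44* and *B4galt7* still passed (limma adjusted p = 0.022, 0.041 and 0.0104). The summed endothelial markers were 1613 to 1702 FPKM after StcE and 1700 to 1842 FPKM in saline, with 5 of 9 passing as lower. It was not computed whether they followed the falling list genes sample by sample, and their part in the result was not tested.

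**Figure D4:**
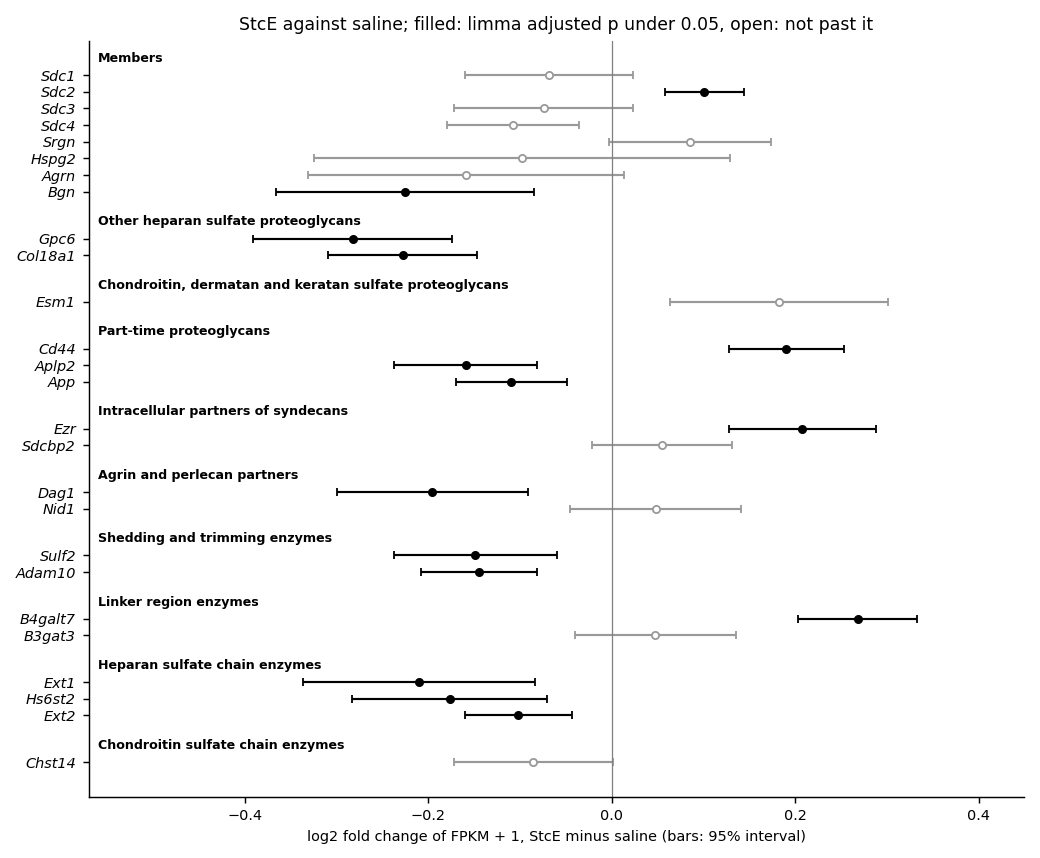
Log2 fold change of FPKM + 1, StcE minus saline, with 95% intervals, for the 8 tested members at the top and the named genes of 9 related lists below. Filled points passed the threshold on the limma adjusted p and open points did not; among the members these are *Sdc2* at 0.10 and *Bgn* at -0.23.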

How the data were processed

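bEnd.3 cells were profiled by bulk RNA-seq (5 saline and 5 StcE samples). The submitters' processing notes name HISAT2 2.0.5, featureCounts 1.5.0-p3, DESeq2 1.32.0 and the mm10 build; the annotation release is not given in the sources used here. Poly-A RNA was made into directional libraries, and the deposited values were FPKM, 1 column per sample, made by the authors from aligned read pairs. The table had 22874 empty lines besides its 27024 named genes.

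The members and lists were chosen with earlier results of these data known. Members were matched by gene name and placed on GRCm38 with GENCODE vM21. The product of FPKM and exon length was a whole number of fragments, within 0.02, for 96.47% of values above 0. Genes with a mean of at least 1 FPKM were tested on log2(FPKM + 1), pseudocount 1, by limma 3.58.1 under R 4.3.3, using moderated statistics with a mean-variance trend (eBayes), Benjamini-Hochberg adjustment and treatment as the only term. Scaling by the median ratio left the same calls, since the deposited values were already on that scale. The procedure was tested on simulated data. Single members were also compared by exact two-sided permutation. BLAST 2.17.0 was used to look for stretches of at least 150 bases and 95% identity in other genes, and found them for *Sdc3* (*Gm26716*) and *Gpc1* (*Ankmy1*), the overlapping genes of the opposite strand.

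Genes named from the lists were those past the threshold, at most 4 a list, and the most highly expressed where fewer than 2 passed. For each called member, the 2 genes most correlated with it were also named. Alternatives were a pseudocount of 0.1, a minimum of 0.1 FPKM, no filter, 2 scalings, eBayes without trend and robust, array weights, a replicate block and each sample left out. Those chosen after seeing the data were voom on recovered fragments, 2 further scalings and an unblocked fit of the 8 samples used with the block.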

Additional observations from a re-analysis of the deposited data

Results flagged for a closer look

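In 3 of 56 groups of 5 samples, 1 sample stood apart from the others by Dixon's criterion, where chance gives about 1 in 20 groups (2.8 of 56). *Sdc1* had 25.03 FPKM in saline replicate 3 against 23.4 to 23.6 FPKM in the other saline samples. *Srgn* had 18.7 FPKM in saline replicate 4 against 20.8 to 21.2 FPKM. *Ezr* had 26.75 FPKM in StcE replicate 5 against 28.0 to 28.4 FPKM in the other StcE samples.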

How the results depend on the processing

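Under the alternatives run, the direction held for each of the 8 tested members and for the genes of the related lists shown with fold changes; the genes named for their correlation with a member, and *Chst11*, *Gipc1*, *Prkca*, *Nrp1* and *Thbd*, were not recomputed. *Sdc2* stayed past the threshold in 22 of 23 alternatives, with log2 fold changes of 0.0966 to 0.105 when single samples were left out, and *Bgn* in 12 of 23, with -0.44 by voom (adjusted p = 0.00965) and -0.40 with a pseudocount of 0.1. Against 1320 genes past the threshold (709 lower, 611 higher) and 2 members (1 lower, 1 higher), no filter gave 801 genes (409 lower, 392 higher) and 1 member (0 lower), and array weights gave 2 lower members. Leaving out single samples gave 793 to 1255 genes (409 to 667 lower, 384 to 588 higher), lowest without StcE replicate 3 and next lowest without saline replicate 1 (838), with 1 to 3 members (0 to 2 lower, 1 higher throughout). The replicate numbers were not stated to mark a shared culture or day. Same-numbered samples correlated at -0.0966, -0.0225, -0.0265 and 0.0538, which did not show a pairing but cannot exclude one. With the replicate block 349 genes (162 lower, 187 higher) and 0 members (0 lower, 0 higher) passed in limma. The limma adjusted p with the block was 0.123 for *Sdc2* and 0.105 for *Bgn*. With the block, 4 of the 8 tested members had an unadjusted p under 0.05, a share not computed for all genes. The 8 samples without the block gave 885 genes (452 lower) and 2 lower members. Scaling by the upper quartile of each sample's values above 0 put the median log2 fold change of all genes at 0.0414, against -0.000663, and gave 183 lower genes and 821 higher, 18.2% lower against 53.7%, with 1 member (0 lower). Depth limits *Gpc1* and *Gpc4*, which rested on at most 19 fragments, and *Bgn*, on at most 247.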

Other observations

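The genes whose levels most resembled those of the 2 called members over the 10 samples were found among tested genes with a mean of at least 10 FPKM. For *Sdc2*, out of 4936 genes, these were *Cyb5b*, a cytochrome b5 of the outer mitochondrial membrane (Pearson r = 0.982, 84.1 ± 1.33 FPKM in saline and 102.9 ± 2.72 after StcE, SD, n = 5 each), and *Plaur*, the urokinase receptor (r = 0.977, 93.0 ± 2.72 and 115.9 ± 2.04 FPKM). For *Bgn*, out of 4937 genes, they were *Clec14a*, an endothelial C-type lectin (r = 0.964, 24.1 ± 2.36 and 19.6 ± 1.42 FPKM), and *Ltbp4*, which binds latent TGFβ (r = 0.964, 12.4 ± 0.923 and 10.3 ± 0.540 FPKM). The points share their libraries and fall into the 2 treatment groups, so these values of r are descriptions only.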
